A study of Sus scrofa with 9 samples.

Results

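Heparan sulfate is a sulfated sugar chain that cells attach to carrier proteins at their surface and in the matrix around them, and 10 genes that encode enzymes building or trimming this chain are described here. They are EXT1, EXT2, NDST1, NDST2, HS2ST1, HS6ST1, HS6ST2, HS3ST1, SULF1 and SULF2. The genes were taken by symbol from a table of 19535 gene rows, and all 10 were found. They were chosen from results of these same libraries, on the levels and fold changes of the 3 groups, so every level and fold change below is a description of the chosen genes and carries no test of its own. Porcine valve interstitial cells (PVICs), the fibroblast-like cells of the heart valve leaflet, came from the aortic valves of wild type pigs aged 4 to 5 months. The control group received DMEM with serum. The OIM group received osteogenic induction medium, which added 2 mmol/L phosphate, 50 µg/mL ascorbic acid and insulin at 1e-07 mol/L, and the bFGF group received the same osteogenic medium with 50 ng/mL basic fibroblast growth factor (bFGF). Each group had 3 RNA sequencing libraries taken after 3 days per the labels, whereas the methods of the study give a shorter treatment.

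The chain starts on a serine of a carrier protein through a short linker, and the EXT1 and EXT2 proteins then extend it together by adding alternating sugars. NDST enzymes replace acetyl groups with sulfate in patches, which opens those patches to the sulfotransferases that add sulfate at the 2-O, 6-O and, rarely, the 3-O position. FGF ligands and their receptors bind such sulfated patches, antithrombin binds a patch that carries the 3-O-sulfate, and the endosulfatases SULF1 and SULF2 remove 6-O-sulfates from finished chains outside the cell.

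Among the 10 genes, HS3ST1 had nearly all its counts under bFGF, HS6ST1 rose there and SULF1 fell the most, so the 250 bases before the annotated start of each of these 3 genes were set side by side. They were read from the reference assembly Sscrofa11.1 with its RefSeq annotation, 5′ to 3′ on the strand of the gene. Capitals mark matches on either strand to short motifs. The AP-1 motif was searched as the letters TGANTCA. For the ETS family the core searched was CGGAAG. A match to GGGCGG was counted as a GC box. The TATA box was searched by the letters TATAAA. The starts are those of predicted gene models.
HS3ST1, chr8:7424559-7424808, minus strand: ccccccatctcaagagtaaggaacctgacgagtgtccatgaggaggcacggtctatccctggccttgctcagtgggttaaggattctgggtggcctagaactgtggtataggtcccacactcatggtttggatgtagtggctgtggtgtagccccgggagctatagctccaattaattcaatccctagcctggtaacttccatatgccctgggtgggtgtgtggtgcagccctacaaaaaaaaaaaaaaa
HS6ST1, chr15:59066198-59066447, plus strand: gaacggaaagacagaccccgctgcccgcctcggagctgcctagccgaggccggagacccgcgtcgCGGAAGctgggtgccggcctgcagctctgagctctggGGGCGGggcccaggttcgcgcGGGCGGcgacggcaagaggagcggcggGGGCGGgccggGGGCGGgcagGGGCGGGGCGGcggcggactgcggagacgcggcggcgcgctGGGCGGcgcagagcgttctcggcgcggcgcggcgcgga
SULF1, chr4:65778890-65779139, minus strand: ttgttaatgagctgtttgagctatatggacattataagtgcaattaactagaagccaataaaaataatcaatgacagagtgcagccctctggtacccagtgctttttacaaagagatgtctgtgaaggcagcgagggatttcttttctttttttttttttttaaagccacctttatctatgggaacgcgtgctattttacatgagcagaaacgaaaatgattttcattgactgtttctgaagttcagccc
The HS6ST1 window held 7 GC boxes, a pair of which share 1 base, and 1 ETS match. None of the 4 sets of letters was found in the HS3ST1 or SULF1 window, and the HS3ST1 window ended in a run of A. The windows differed in composition, with 80.4% G and C and 43 CpG dinucleotides before HS6ST1, 51.2% and 3 before HS3ST1, and 36.8% and 4 before SULF1. Over 19531 windows of the same length before protein-coding genes, the medians were 57.6% and 12, and a GC box occurred in 45.9%, an ETS match in 15.8%, a TATA box in 9.8% and an AP-1 match in 5.3%. The remaining 7 genes had between 44.8% (SULF2) and 76.8% (EXT1) G and C. GC boxes also lay before NDST2 (5), EXT1 (3), EXT2, NDST1 and HS2ST1 (1 each). EXT1, EXT2, NDST1 and HS6ST2 had 1 ETS match each, and EXT2 had 2 TATA boxes.

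Gene counts summed to between 57075793 and 64723837 in the control libraries, 57682710 and 67371523 in the OIM libraries, and 46773376 and 48270827 in the bFGF libraries. Levels are given as CPM, each count relative to the size of its library scaled by TMM, which sets the bulk of genes level between libraries. A gene was called higher or lower at an adjusted p of at most 0.05 in the edgeR quasi-likelihood test over 13662 genes and a log2 fold change of at least 0.5 in size. OIM replicate 2 stood apart from its group: the mean chi-square per gene between it and each other OIM library was 18.4, beside 5.78 between those 2 and 4.64 to 11.3 within the other groups. The labels do not say that the libraries came from separate animals or cultures, so the tests measure only the spread between these libraries, which may be technical. Of 9 marker genes of valve interstitial cells all were tested, and their summed level was 61400 to 70200 CPM in the control and OIM libraries and 37500 to 37800 CPM in the bFGF libraries, where 1 was called higher and 4 lower than in OIM, beside 17.7% and 18.4% of all genes. The 4 lower were COL1A1 (25000 CPM in OIM and 9880 under bFGF), COL1A2 (17700 and 8850), COL3A1 (10900 and 6600) and DCN (424 and 214). The collagen genes supplied most of the sum. VIM was the 1 called higher (5690 and 9010 CPM), and PDGFRA, PDGFRB, LUM and THY1 were not called. In whole cultures, fewer cells of a type and less RNA per cell cannot be told apart.

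Of the 10 enzymes, 9 had counts high enough to be tested, and HS3ST1 passed that filter only through the bFGF libraries, where it was high, so its call was fixed by the filter and it is left out of the bFGF counts that follow. Between OIM and control, 0 of the 9 were called in either direction, against 1.49% of all tested genes called higher and 0.864% called lower. At an unadjusted p of at most 0.05, 0 of the 9 passed with the fold limit and 5 without it, and DESeq2 also called 0. Counts at an unadjusted p without the fold limit are given here and below, but the share of all genes at that limit was not counted. Without the fold limit, an adjusted p alone called 1051 genes higher and 802 lower in OIM against control. In bFGF against OIM it called 4620 and 4583. Of the 8 enzymes other than HS3ST1, HS6ST1 was called higher and NDST1, SULF1 and SULF2 lower between bFGF and OIM. Of all genes, 17.7% were called higher and 18.4% lower there. Between bFGF and control, HS6ST1 was called higher and NDST1 and SULF1 lower, beside 18.9% and 20.0% of all genes. The 3 comparisons share libraries: each of the bFGF comparisons uses the same bFGF libraries, and both comparisons with OIM use the same OIM libraries. The median log2 fold change over the 8 genes was -0.08 in OIM against control, -0.11 in bFGF against OIM and -0.25 in bFGF against control, and the medians over all tested genes were -0.002, -0.003 and -0.016.

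**Figure D1:**
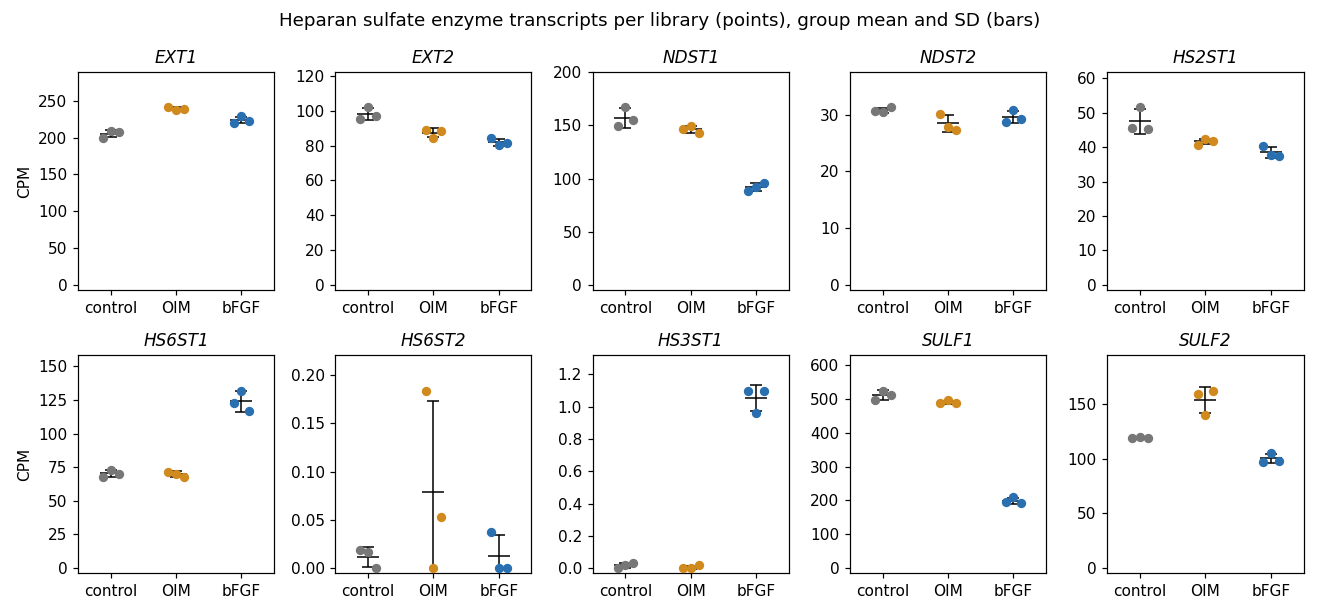
Level of each of the 10 heparan sulfate enzyme genes in CPM (y axis, own scale per gene) in the control, OIM and bFGF groups (x axis). Points are the 3 libraries of a group and bars the mean with its SD. The bFGF libraries lie above all others for HS3ST1 and HS6ST1 and below all others for NDST1, SULF1, SULF2, EXT2 and HS2ST1. Of these, EXT2 and HS2ST1 were not called, and SULF2 was called against OIM but not against control. The share of all genes whose groups lie apart in this way was not counted, here or below.

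To compare genes with each other, CPM was divided by exon length in kilobases. In control cells EXT1 had the highest level, with 59.8 ± 1.42 CPM per kb (SD, n = 3), followed by SULF1 with 40.9 ± 1.18, EXT2 with 32.3 ± 1.11, SULF2 with 25.4 ± 0.102, NDST1 with 20.1 ± 1.2 and HS6ST1 with 16.6 ± 0.617. NDST2 followed with 7.69 ± 0.106 CPM per kb and HS2ST1 with 5.41 ± 0.403, while HS3ST1 and HS6ST2 stood near 0 and could not be ordered. No other neighbours in this order overlapped, but the place of SULF1 depends on the gene model: with the length of its longest transcript instead of all its exons, its level was 60.7 CPM per kb, beside 59.8 for EXT1. In OIM the level of SULF2, 32.7 ± 2.48 CPM per kb, stood above that of EXT2, 28.8 ± 0.819. Under bFGF the order was EXT1 at 65.2 ± 1.25 CPM per kb, HS6ST1 at 29.3 ± 1.81, EXT2 at 27 ± 0.66, SULF2 at 21.3 ± 0.954, SULF1 at 16 ± 0.677 and NDST1 at 11.8 ± 0.476. HS6ST1, at 27.7 to 31.3 CPM per kb, met EXT2, at 26.5 to 27.7, at its lower edge. NDST2 (7.38 ± 0.271), HS2ST1 (4.39 ± 0.173) and HS3ST1 (0.357 ± 0.0269) came last among the genes detected in every bFGF library. With longest transcripts as lengths, SULF1 had 23.7 and SULF2 22.2 CPM per kb under bFGF, so the order of this pair is not settled there.

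The chain-extending pair changed little. EXT1 (chromosome 4, 20645002 to 20935769, plus strand) had 200 to 209 CPM in control, 238 to 241 in OIM and 220 to 229 under bFGF. The 3 groups did not overlap, with OIM highest, and the log2 fold change was 0.22 (SE 0.034) in OIM against control and -0.1 (SE 0.034) in bFGF against OIM, neither past the fold limit. EXT2 (chromosome 2, 18099790 to 18239229, minus strand) had 95.5 to 102 CPM in control, 84.6 to 89.2 in OIM and 80.4 to 84.3 under bFGF. EXT2 was thus lowest under bFGF and highest in control, with log2 fold changes of -0.17 (SE 0.042) in OIM against control and -0.26 (SE 0.042) in bFGF against control, and was not called. EXT2 made up 35 ± 0.506% of the summed level of the pair per length in control, 29.2 ± 0.491% in OIM and 29.3 ± 0.864% under bFGF. The signs of the bFGF against OIM values of EXT1 and EXT2 turned to 0.12 and 0.13 when libraries were scaled by their totals alone, a choice that moves the median of all genes by 0.22 on the log2 scale.

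The N-deacetylase/N-sulfotransferases carry out the first modification of the chain, and NDST1 is the form found in most tissues. NDST1 (chromosome 2, 151433925 to 151525909, plus strand) had 149, 167 and 155 CPM in the control libraries, 147, 149 and 143 in OIM, and 88, 92.3 and 95.4 under bFGF. All bFGF libraries lay below all others, and control and OIM overlapped. NDST1 fell by 0.67 on the log2 scale (SE 0.045) in bFGF against OIM, its level decreased by 37.1%, and it fell by 0.77 (SE 0.045) against control. With library totals alone the value against OIM was -0.45, which is inside the fold limit. The start of NDST1, at 151433925, overlaps RPS14 on the opposite strand, which reaches to 151433951. This stretch is short beside the 7810 exon bases of NDST1. The strand setting of the counting is not given in the sources used here, so reads from the 2 genes may not have been told apart there.

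NDST2, the form that mast cells use to make heparin, lies on chromosome 14 from 76525998 to 76534695 on the minus strand. It had 30.5 to 31.3 CPM in control, 27.3 to 30.2 in OIM and 28.7 to 30.8 under bFGF, so the bFGF libraries overlapped both other groups. NDST2 shares part of its span with LOC106506035 on the same strand, so its counts may be uncertain. Its log2 fold change in bFGF against OIM was 0.06 (SE 0.06). Of 5 mast cell markers in the table, CPA3, MS4A2 and FCER1A had 0 counts in all 9 libraries, HDC had at most 11 counts, and KIT, a receptor that other cells also use, had 109 to 135 CPM in control and OIM and 58.2 to 65.6 under bFGF, where it was called lower than in OIM. The part of such cells in the NDST2 level was not tested. Per length, NDST2 made up 28.6, 26.2 and 28.2% of the 2 NDST genes in control, 28.6, 26.7 and 27.1% in OIM, and 38.8, 39.4 and 37.4% under bFGF. The 3 bFGF libraries held the highest shares, and the shares of the other groups overlapped.

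HS2ST1 encodes the 2-O-sulfotransferase and has no paralog with the same activity. The gene (chromosome 4, 129101900 to 129258372, minus strand) had 45.2 to 51.6 CPM in control, 40.8 to 42.4 in OIM and 37.6 to 40.3 under bFGF. The groups followed one another downward without overlap, and none of the differences passed the fold limit: the log2 fold change was -0.19 (SE 0.057) in OIM against control, -0.11 (SE 0.057) in bFGF against OIM and -0.3 (SE 0.057) in bFGF against control. With library totals alone the middle value was 0.11. Of the windows of 31 bases in its exons, 1.21% also occur in exons of other genes, the highest share among the 10 genes.

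HS6ST1, the 6-O-sulfotransferase of most tissues, rose under bFGF. It lies on chromosome 15 from 59066448 to 59108780 on the plus strand, behind the GC-rich window shown above. It had 68.1, 73.2 and 69.8 CPM in the control libraries, 71.7, 70.2 and 67.8 in OIM, and 123, 132 and 117 under bFGF. Control and OIM overlapped, with a log2 fold change of -0.01 (SE 0.048) that changed sign when control replicate 2 or OIM replicate 3 was left out. HS6ST1 rose by 0.83 on the log2 scale (SE 0.048) in bFGF against OIM, which is 1.78-fold, and by 0.82 (SE 0.048) against control.

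HS6ST2, a paralog of HS6ST1 on chromosome X (108755577 to 109043976, minus strand), was too low to be tested. It had 1, 1 and 0 counts in the control libraries, 10, 0 and 3 in OIM, and 2, 0 and 0 under bFGF. Most of the OIM counts came from 1 library. The summed counts, 13 in OIM and 2 in control, gave a ratio of 6.44 per sequencing depth with an exact 95% counting interval of 1.46 to 58.8, which leaves out the spread between libraries. HS6ST2 made up at most 0.11 percent, on average over a group, of the summed level of the HS6ST pair per length.

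HS3ST1 encodes the 3-O-sulfotransferase that completes the binding site of antithrombin in heparan sulfate. The gene lies on chromosome 8 from 7389774 to 7424558 on the minus strand. It had 0, 1 and 2 counts in the control libraries, 0, 0 and 1 in OIM, and 59, 50 and 57 under bFGF. HS3ST1 was thus close to absent outside the bFGF group, and each of the 3 bFGF libraries held many times the counts of all 6 others together. In CPM the bFGF libraries had 1.1, 0.961 and 1.1, and per length its level there was still the lowest of the 10 genes but for HS6ST2. The summed counts, 166 under bFGF and 1 in OIM, gave a ratio of 186 per sequencing depth with an exact 95% counting interval of 32.9 to 7380, and against the 3 counts in control the ratio was 61.4 (20.6 to 301). The interval covers counting error only.

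HS3ST1 is expressed by endothelial cells, and some markers of that cell type were also higher in the bFGF libraries. Of 10 endothelial markers, KDR and CLDN5 passed the filter on low counts only through the bFGF libraries, and of the other 8, 5 were called higher in bFGF against OIM, beside 17.7% of all genes. VWF (0.303 CPM in OIM and 0.228 under bFGF), TIE1 (1.85 and 2.03) and NOS3 (1.04 and 1.23) were not called. The 10 had a summed level of 73.9 to 76.7 CPM in control, 88.1 to 90.8 in OIM and 171 to 181 under bFGF. None of the 10 was at 0 in all libraries. ERG, a transcription factor of endothelium, supplied most of this sum, with 66.8 CPM in OIM and 137 under bFGF, while the junction protein genes PECAM1 (11.8 and 20.7 CPM) and CDH5 (5.8 and 8.24 CPM) supplied less. The part of these cells in the HS3ST1 counts was not tested. The 5 genes whose levels were most like that of HS3ST1 over the 9 libraries were CYP2R1, CDK5RAP2, MRPL55, LOC102158679 and GCLC, with Pearson's r on log2 CPM from 0.9931 to 0.9948. Such likeness was common, because 1524 of the 13662 tested genes had an r over 0.95, and the libraries fall into the bFGF group and the rest. CDK5RAP2, which encodes a protein of the centrosome, had 27.5, 25.9 and 58.2 CPM in control, OIM and bFGF.

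SULF1 and SULF2 encode the extracellular endosulfatases that take 6-O-sulfates off finished chains. SULF1 (chromosome 4, 65595947 to 65778889, minus strand) had 496, 525 and 513 CPM in the control libraries, 489, 496 and 488 in OIM, and 195, 209 and 194 under bFGF. The bFGF libraries were far below the others. At the digits given, every OIM library was at or below every control library, with 496 CPM in both groups at the closest. SULF1 fell by 1.3 on the log2 scale (SE 0.037) in bFGF against OIM, which is 2.46-fold, and by 1.36 (SE 0.037) against control. Its difference between OIM and control was -0.06 (SE 0.036) and not called.

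SULF2 (chromosome 17, 49663721 to 49805118, minus strand) had 119, 120 and 119 CPM in the control libraries, 159, 140 and 162 in OIM, and 97.1, 105 and 98.1 under bFGF. The 3 groups did not overlap, with OIM highest and bFGF lowest. In OIM the log2 difference from control was 0.36 (SE 0.049), a level 28.8% higher that was inside the fold limit. Of the OIM libraries, the one that stood apart, replicate 2, had the lowest level, and without it the value was 0.43. SULF2 fell by 0.62 (SE 0.049) in bFGF against OIM and its level decreased by 34.8%, whereas the value against control was -0.25 (SE 0.049) and not called. With library totals alone the value against OIM was -0.39, inside the fold limit.

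Per length, SULF2 made up 39, 37.7 and 38.1% of the SULF pair in the control libraries, 46.3, 42.9 and 46.9% in OIM, and 56.9, 57.2 and 57.3% under bFGF. The 3 groups did not overlap, and the share of SULF2 was highest under bFGF although both genes were lowest there. With longest transcripts as lengths the shares were 30.4, 36.9 and 48.4%, in the same order. Markers of smooth muscle moved in the same direction as NDST1, SULF1 and SULF2: 7 of 7 were called lower in bFGF against OIM, beside 18.4% of all genes, with a summed level of 7800 to 10600 CPM in OIM and 903 to 1010 under bFGF, and none was at 0 in all libraries. The lowest OIM sum was that of replicate 2, and without that library the values in bFGF against OIM were -0.64 for NDST1, -1.27 for SULF1 and -0.66 for SULF2. In OIM against control, 2 of the 7, MYH11 (129 and 281 CPM in control and OIM) and DES (0.398 and 4.05 CPM), were called higher and 5 were not called, where the values of NDST1 (-0.1), SULF1 (-0.06) and SULF2 (0.36) were not called. Of 5 tested macrophage and leukocyte markers, 2 were called lower in bFGF against OIM, beside the same 18.4%: CD14 (13.5 to 7.68 CPM) and CD163 (1.05 to 0.57 CPM). The summed level of that list was 15.5 to 16.7 CPM in OIM and 8.86 to 9.6 under bFGF. Among the smooth muscle markers, ACTA2 supplied most of the sum, with 8450 CPM in OIM and 738 under bFGF. Counts of whole cultures do not tell which cells carried the markers of either list. The part of such cells in the levels of the 3 enzymes was not tested.

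**Figure D2:**
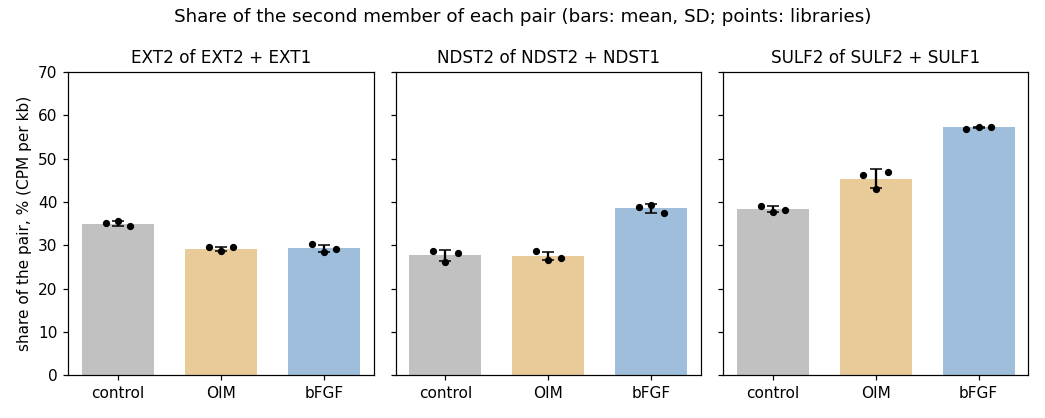
Share of EXT2, NDST2 and SULF2 in the summed CPM per kb of each gene and its partner (y axis, percent) in the 3 groups (x axis); bars are means with SD and points the 3 libraries. The SULF2 share was 38.3% in control, 45.4% in OIM and 57.2% under bFGF, and the NDST2 share was highest under bFGF at 38.5%.

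**Figure D3:**
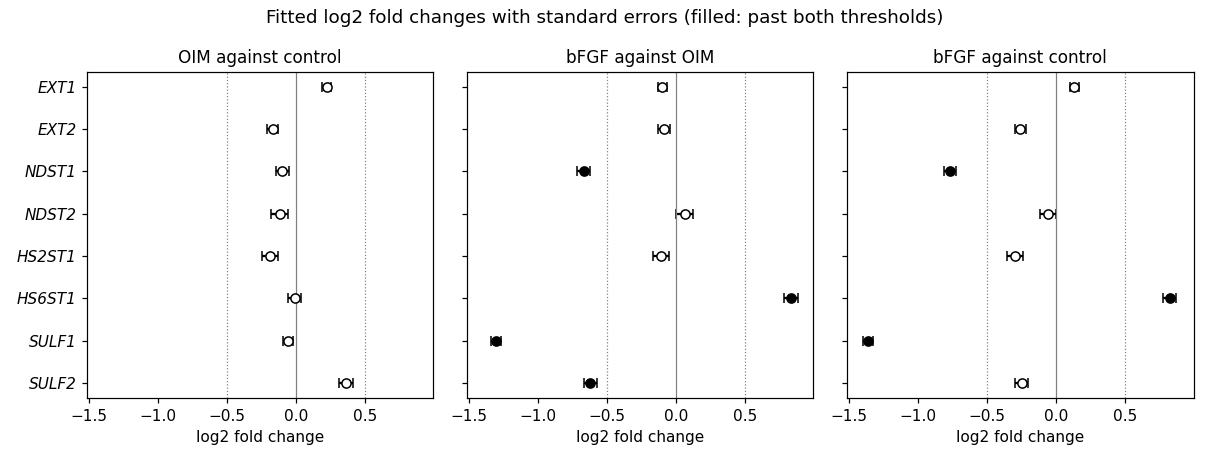
Fitted log2 fold change (x axis) with its standard error (bars) of the 8 enzyme genes other than HS3ST1 and HS6ST2 (y axis) in each comparison; dotted lines mark the fold limit of 0.5 and filled points were called. No point is filled in OIM against control, and HS6ST1 is the only filled point to the right of 0 in the bFGF comparisons.

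The other genes of the heparan sulfate pathway were read from 4 lists, and 27 of them were tested and passed the filter without the bFGF libraries. Of these, 0 were called between OIM and control by edgeR or DESeq2, and 0 passed an unadjusted p of at most 0.05 with the fold limit against 6 without it. Between bFGF and OIM, 4 of the 27 (14.8%) were called higher and 3 (11.1%) lower, beside 17.7% and 18.4% of all genes. Between bFGF and control, 5 (18.5%) were higher and 3 (11.1%) lower, beside 18.9% and 20.0% of all genes, and 1 of the 5, B3GALT6 of the linker, named after its values were seen, was not called without bFGF replicate 3 (0.48). For single genes in bFGF against OIM, the p-values below are adjusted over all genes in edgeR's quasi-likelihood test. Of the 6 genes of the linker, 1 rose and 0 fell, by DESeq2 as well, and at an unadjusted p of at most 0.05 without the fold limit 3 had a higher and 1 a lower level. The gene that rose was FAM20B, the kinase that phosphorylates the xylose of the linker, with 55.2 CPM in OIM and 82.9 under bFGF (log2 fold change 0.59, SE 0.042, adjusted p = 1.6e-10).

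Of 12 other genes of chain initiation and modification in the table, 5 could be tested. HS3ST3B1, a 3-O-sulfotransferase whose product serves as a receptor for herpes simplex virus, passed the filter only through the bFGF libraries, so it is not among the 27 and is given no test here. It had 1, 8 and 18 counts in control, 12, 4 and 8 in OIM, and 19, 31 and 33 under bFGF. The bFGF libraries lay above all others, by 1 count at the closest. Of the other 4 genes, 0 were called higher and 1 lower, by edgeR and by DESeq2, and 1 had a higher level at an unadjusted p of at most 0.05 without the fold limit. HS3ST6, of the same family as HS3ST3B1, fell from 1.47 to 0.469 CPM (log2 fold change -1.64, SE 0.38, adjusted p = 0.000795). HS3ST4 had 0 counts in every library, and HS3ST2, HS3ST3A1 and HS3ST5 were too low to be tested.

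Sulfotransferases take sulfate from the donor PAPS, and the polymerases take UDP-sugars. Of 8 tested genes that supply these donors, 2 rose and 1 fell in bFGF against OIM, beside 17.7% and 18.4% of all genes. UGDH, which makes the UDP-glucuronic acid built into the chain, rose from 182 to 467 CPM (log2 fold change 1.36, SE 0.037, adjusted p = 6.1e-17). PAPSS2, a synthase of PAPS, rose from 230 to 414 CPM (0.85, SE 0.046, adjusted p = 1.9e-12). UGP2, which makes the UDP-glucose that UGDH uses, fell from 270 to 146 CPM (-0.88, SE 0.038, adjusted p = 5.6e-14).

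Of 9 tested genes that break heparan sulfate down, 1 rose and 1 fell in bFGF against OIM, beside 17.7% and 18.4% of all genes. At an unadjusted p of at most 0.05 without the fold limit, 2 had a higher and 5 a lower level. Of all 13662 genes, 4620 were higher and 4583 lower without that limit even at an adjusted p. IDUA, the lysosomal iduronidase, fell from 84.2 to 44.9 CPM (log2 fold change -0.91, SE 0.049, adjusted p = 1.98e-12). ARSG, the lysosomal sulfatase of 3-O-sulfated residues, rose from 1.79 to 3.13 CPM (0.8, SE 0.2, adjusted p = 0.00166). The remaining 7 were not called, and the median over the 9 was -0.22.

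**Figure D4:**
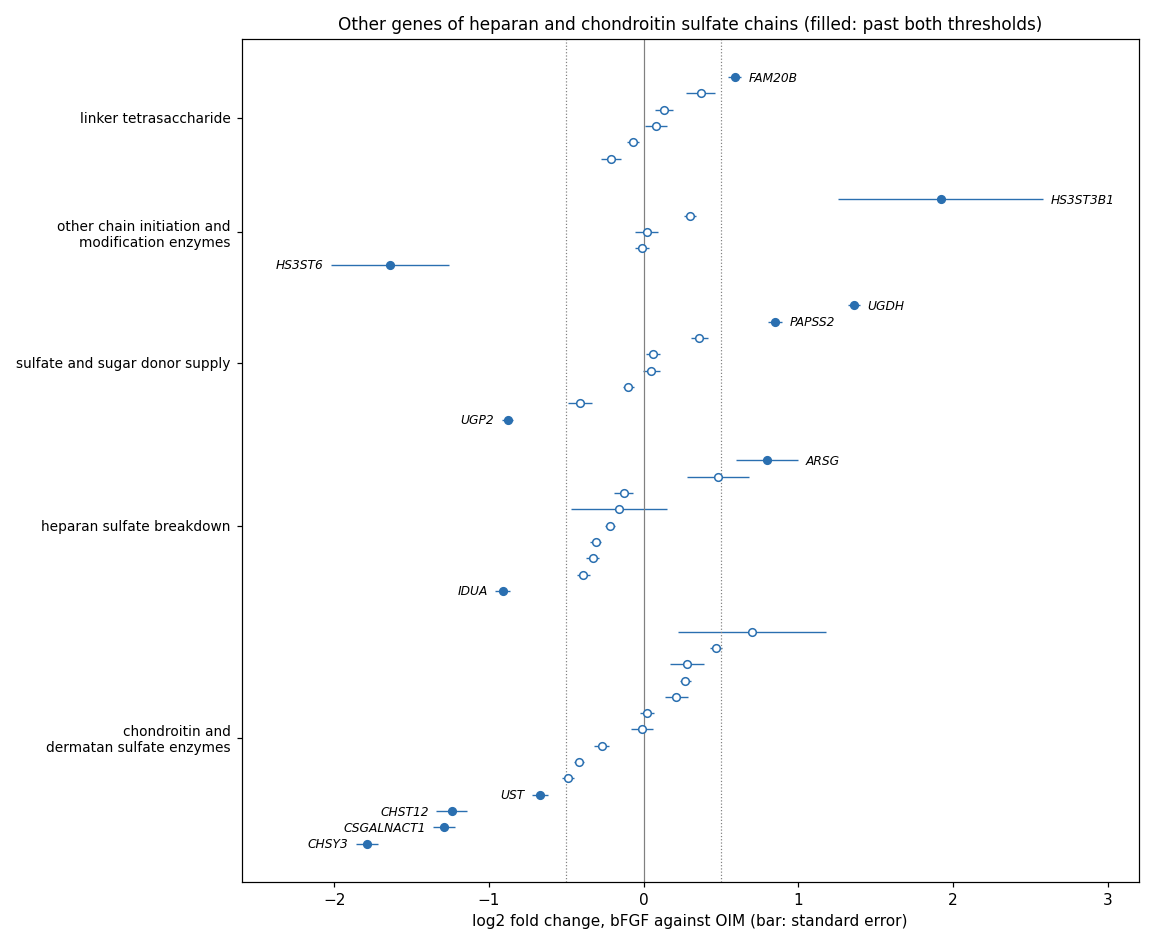
Log2 fold change in bFGF against OIM (x axis) with its standard error (bars) of each tested gene in 5 lists of other glycosaminoglycan genes (y axis, 1 row per gene); filled points were called and are named, and dotted lines mark the fold limit of 0.5. UGDH and PAPSS2 stand to the right among the donor genes, and the 4 chondroitin genes called in this comparison stand to the left.

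Circular RNAs, which arise when an exon end is joined back to an earlier exon start, were counted separately in the same libraries. Of 6179 listed, 4 lay within the 10 genes, and none reached more than 5 counts in any library. The one in SULF2 (chromosome 17, 49753769 to 49773427) spans exons 2 to 3 of an annotated transcript and had 3 counts in control replicate 3, 2 in OIM replicate 3 and 2 in bFGF replicate 1. The one in EXT1 (chromosome 4, 20904746 to 20922747) spans exons 4 to 8 and had 3 counts, all in OIM replicate 3. At this depth no difference between groups was detectable for either.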

How the data were processed

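RNA of PVICs in 3 groups of 3 libraries was sequenced, and the labels give each library its group and replicate number. Per the labels a stranded total RNA kit that removes ribosomal RNA was used, whereas the methods of the study name poly-A selection. The submitters' processing notes list Trimmomatic, HISAT2, StringTie and Sscrofa11.1, and the methods name Cutadapt and STAR. The authors deposited expected counts that were not normalized: whole numbers for 19535 genes and 6179 circRNAs, and estimates for 9888 non-coding transcripts, of which 44.6% of values are not whole and none lay at the 10 genes. The counting program and its strand setting are not given in the sources used here, and 19 unnamed columns are empty.

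Gene counts were filtered with filterByExpr, scaled by TMM and tested in edgeR 4.0.16 (R 4.3.3, quasi-likelihood, 1 model over the 3 groups, 6 residual degrees of freedom), with Benjamini-Hochberg adjustment over 13662 genes. A call needed an adjusted p of at most 0.05 and a log2 fold change of at least 0.5 in size, the limits of the study. The SE is the fold change divided by the square root of F. The common biological coefficient of variation was 0.0602. On simulated counts for bFGF against OIM, 185 of 200 changed genes among 13662 were recovered with 5 false calls. Where a group had at most 3 counts in all, a ratio with an exact 95% interval replaced the fitted fold, which covers counting error only. HS6ST2 received the same treatment. Exon length was the union of all annotated exons.

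The 10 genes, the lists and the rules were chosen with earlier results of these data known. The text names all 10 genes, each called gene of the other pathway lists in bFGF against OIM, and the 5 genes most like HS3ST1. Alternatives were DESeq2 1.42.0, median-of-ratios factors, library totals, a filter of 1 count, fits of only the 2 groups compared, a replicate block, no fold limit, longest transcripts as lengths, and each library left out. Symbols NDST4, BPNT2, NAGLU, CHPF2 and TPSB2 were not analysed here.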

Additional observations from a re-analysis of the deposited data

How the results depend on the processing

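Without the fold limit the called genes were 1051 higher and 802 lower in OIM against control, 4620 and 4583 in bFGF against OIM, and 4709 and 4881 in bFGF against control. Of the 10 enzymes this called 2 higher and 2 lower in OIM against control and 5 lower in bFGF against control, and of the 42 tested genes of the other lists, the chondroitin list included, 5 higher and 1 lower in OIM against control, 13 and 17 in bFGF against OIM, and 17 lower in bFGF against control. With library totals alone, 3733 genes were higher in bFGF against OIM and 3931 in bFGF against control, the share of calls that were higher went from 49% to 68.8% and from 48.5% to 68.1%, 1 enzyme was lower and 11 genes of the other lists were higher in bFGF against OIM. That scaling turned EXT1 to 0.12, EXT2 to 0.13 and HS2ST1 to 0.11 in bFGF against OIM and NDST2 to 0.17 in bFGF against control, and NDST1 (-0.45), SULF2 (-0.39) and UST (-0.44) were then not called in bFGF against OIM. With longest transcripts the control levels were 6.03 CPM per kb for HS2ST1, 60.7 for SULF1 and 26.5 for SULF2, and the SULF2 share was 30.4%. Leaving out 1 library at a time gave 3 enzymes lower in bFGF against OIM in all 9 fits. Beside HS3ST1, whose call the filter fixed, 1 was higher there in each fit, with 2327 to 2584 genes higher and 2421 to 2529 lower. Genes of the other lists called higher numbered 4 to 6 there and 8 to 10 in bFGF against control. In this section, counts of these lists called higher in bFGF comparisons include HS3ST3B1 in the fits that called it. HS3ST3B1 passed the filter only through the bFGF libraries, so its part in those counts carries no test. Leaving out 1 library moved HS6ST1 in OIM against control between -0.03 and 0.02. Replicate numbers did not pair the libraries: deviations of same-numbered libraries correlated at -0.03 to 0, and 0 of 9 libraries correlated best with its own number. A replicate block gave 2413 genes higher and 2504 lower in bFGF against OIM and the same counts of called enzymes. HS6ST2, the circRNAs and most 3-O-sulfotransferase genes are limited by depth.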

Other observations

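Chondroitin and dermatan sulfate chains grow on the same linker as heparan sulfate, and their enzymes include the synthases and sulfotransferases of the other common glycosaminoglycan of the valve. Of 14 tested genes of this list, 4 fell and 0 rose in bFGF against OIM by edgeR's quasi-likelihood test, with adjusted p over all genes, beside 18.4% of all genes called lower and 17.7% higher. At an unadjusted p of at most 0.05 without the fold limit, 4 had a higher and 7 a lower level, and DESeq2 called 0 higher and 4 lower. Without the fold limit, 4620 of all 13662 genes were higher and 4583 lower even at an adjusted p. In bFGF against control 3 were called higher and 4 lower, beside 18.9% and 20.0% of all genes. The 3 that were higher, CHSY1 (log2 fold change 0.52), CHST11 (0.55) and DSEL (0.57), were named after their values were seen, as was CHST3 (-0.53), which was lower there in place of UST (-0.39, not called). CHST11 was not called without control replicate 1 (0.48), nor CHST3 with library totals alone (-0.31). In bFGF against OIM, DSEL (0.47) was called higher with library totals alone (0.69) and without OIM replicate 2 (0.53), and CHST3 (-0.49) lower without OIM replicate 3 or bFGF replicate 2 (-0.51 each). The list was chosen with results of these data known, its median log2 fold change was -0.14, and that of all genes was -0.003. CHSY3, a chondroitin polymerase, fell from 55.6 to 16 CPM (log2 fold change -1.79, SE 0.073, adjusted p = 2.24e-14). CSGALNACT1, which adds the first N-acetylgalactosamine and so commits a linker to chondroitin sulfate, fell from 48.6 to 19.9 CPM (-1.29, SE 0.072, adjusted p = 3.07e-12). CHST12, a chondroitin 4-O-sulfotransferase, fell from 17.8 to 7.51 CPM (-1.24, SE 0.1, adjusted p = 1.2e-09). UST, which sulfates uronic acids in these chains, fell from 104 to 65.7 CPM (-0.67, SE 0.05, adjusted p = 3.2e-10) and was not called with library totals alone (-0.44). The summed level of the 15 listed genes in the table was 1240 to 1270 CPM in control, 1340 to 1350 CPM in OIM and 1220 CPM in each bFGF library, so OIM stood above both other groups.

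The circRNA in SULF1 (chromosome 4, 65618800 to 65619444) had 5 counts, all in OIM replicate 1, and its ends did not lie at exon boundaries, whereas both ends of 5248 of the 6179 circRNAs did. The circRNA placed within NDST1 lies on the strand opposite to the gene and had 2 counts, all in OIM replicate 2. With a filter of at least 1 count, 0 of the 4 circRNAs in the 10 genes were called by edgeR, and 0 had an unadjusted p of at most 0.05.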
